A study of Homo sapiens with 20 samples.

Results

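The HCT116-only far peaks are HIF1A binding sites that were called in hypoxic HCT116 cells, in no other line, and away from gene starts. A peak belonged to the set if no hypoxia peak of RKO, A549 or H460 fell in its region, where peaks of the 4 hypoxia lists were joined on an overlap of at least 1 bp, and if its centre lay more than 2500 bp from the start of every protein-coding or lncRNA gene of GENCODE 44 on GRCh37. This held for 1767 of the 3996 HCT116 hypoxia peaks. The 4 hypoxia lists together held 22452 peaks. Of the other HCT116 peaks, 990 were found in HCT116 only but near a start, and the remainder were shared with another line. The same rule gave 7039 peaks for RKO, 3371 for A549 and 1503 for H460.

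HCT116 and RKO are lines from colorectal carcinomas, A549 is from a lung adenocarcinoma and H460 from a lung large cell carcinoma, all without a further genetic change in the labels. Each line was held in normoxia or at 1% oxygen for 24 h, and HIF1A was measured by chromatin immunoprecipitation with sequencing (ChIP-seq) in 2 replicates per line and condition, beside 1 library of input DNA per line. The authors merged the replicates before calling peaks, so no value below has a replicate error. Intervals are 95% intervals of counting error over peaks, and each line is 1 culture model, not a sample of its tissue. Peak lists hold no marker by which the line labels could be checked. The input libraries of RKO and A549 carry labels that name each other's line, and which input stands behind these lists' fold over input cannot be told apart.

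HIF1A is the subunit of hypoxia-inducible factor that is degraded in the presence of oxygen, and it binds DNA as a heterodimer with ARNT at the hypoxia response element (HRE). Part of its binding falls at promoters of glycolytic and other target genes, and part at distal sites in introns and between genes, where enhancers lie. Distal enhancers differ between cell types more than promoters do, and many of them hold sites for AP-1, the dimer of FOS and JUN proteins that responds to growth and stress signals.

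Several sequences show what a far peak of HCT116 looks like. Capitals mark the HRE core, ACGTG or GCGTG on either strand (RCGTG below), and the AP-1 site TGANTCA, and each peak is given on the plus strand of GRCh37 with both ends counted. The first pair are among the strongest peaks of the set, at chr1:43473264-43473412 upstream of SLC2A1 and at chr11:2911949-2912097 upstream of CDKN1C. The peak in an intron of KCNIP2 at chr10:103590412-103590560 is shown for its 10 core matches in a repetitive stretch, and the peak in the KRT19 gene at chr17:39681651-39681799 as the strongest one with no core. The last 2 hold both motifs, at chr16:49005783-49005931 between genes and at chr10:79291255-79291403 in an intron of KCNMA1, where the core and the AP-1 site overlap.
SLC2A1 upstream: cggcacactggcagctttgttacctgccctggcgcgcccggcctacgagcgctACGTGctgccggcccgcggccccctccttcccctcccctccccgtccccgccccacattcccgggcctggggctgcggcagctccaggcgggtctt
CDKN1C upstream: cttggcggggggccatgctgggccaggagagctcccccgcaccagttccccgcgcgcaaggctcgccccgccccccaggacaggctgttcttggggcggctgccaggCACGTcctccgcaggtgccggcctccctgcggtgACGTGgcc
KCNIP2 intron: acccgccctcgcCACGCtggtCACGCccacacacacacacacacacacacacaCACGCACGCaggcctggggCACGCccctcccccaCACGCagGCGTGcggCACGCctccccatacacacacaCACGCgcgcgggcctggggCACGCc
KRT19: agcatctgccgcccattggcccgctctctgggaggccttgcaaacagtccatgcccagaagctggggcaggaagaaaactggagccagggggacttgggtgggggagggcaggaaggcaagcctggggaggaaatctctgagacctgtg
Intergenic, chromosome 16: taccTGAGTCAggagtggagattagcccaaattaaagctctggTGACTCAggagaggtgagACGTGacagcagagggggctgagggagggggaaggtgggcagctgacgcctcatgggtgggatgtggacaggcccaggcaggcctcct
KCNMA1 intron: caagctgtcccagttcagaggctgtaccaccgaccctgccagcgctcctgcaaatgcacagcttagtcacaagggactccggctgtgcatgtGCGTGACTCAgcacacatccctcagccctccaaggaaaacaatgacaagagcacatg

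Most of these peaks were weak. The normalized tag count, the number of ChIP tags in a peak per 10 M tags of the library (M, 1000000), ran from 2.09 to 30.1, with a median of 2.70 and quartiles of 2.58 and 2.94. In unscaled tags the median was 22 (95% interval of the median 22 to 22), the highest value was 245, and 943 peaks (53.4%, interval 51.0% to 55.7%) held 22 tags or fewer. The number of tags that the authors' caller required at its false discovery rate was 22 in this library of 81.5 M tags, and the weakest peak held 17. The median fold over input was 10.1 against a required 7, and 583 peaks (33.0%) had no input tag, so that their fold rests on a placeholder of 0.5. The median fold over the surrounding 10000 bp was 3.91 against a required 3. These values chose the peaks and are given as a description. By comparison, the median normalized tag count was 3.07 in the HCT116-only peaks near starts and 5.64 in the far peaks shared with another line.

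The distance rule had members on both sides of its limit with similar signal. The peaks just inside lay 2502 bp from HTR3E-AS1, 2504 bp from LCN10 and 2507 bp from IGF2BP3, with normalized tag counts of 2.82, 3.07 and 2.58. Those just outside lay 2496 bp from the lncRNA ENSG00000225806, 2483 bp from PTHLH and 2478 bp from TMEM88B, with 2.94, 2.33 and 2.82.

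**Figure D1:**
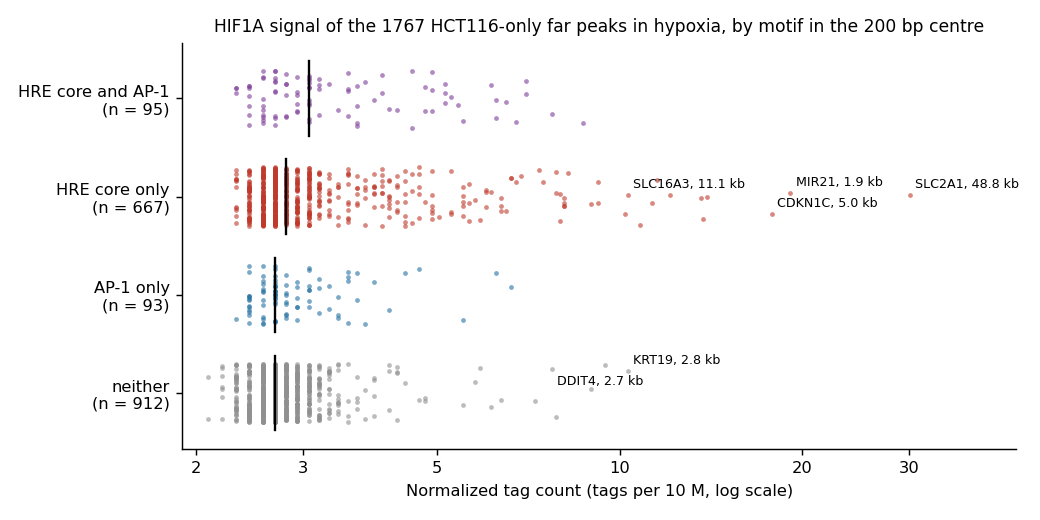
Normalized tag count (x axis, tags per 10 M, log scale) of each of the 1767 peaks (points), grouped by whether the 200 bp at the centre hold the HRE core, an AP-1 site, both or neither, with vertical position within a row random and the median as a bar. The 95 peaks with both motifs have a median of 3.07 and the 912 with neither 2.70, while labels give the gene or miRNA near 6 of the strongest peaks and the distance to its start.

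The 20 strongest peaks lay near genes of many kinds. The peak with the highest normalized tag count, 30.1 with a fold over input of 34.2, lay 48774 bp upstream of SLC2A1, the glucose transporter GLUT1. The nearest peaks of other lines were centred 44853 bp from it in A549, 44862 bp in H460 and 49357 bp in RKO. A further member, at 6.38 and within the same span of 1302 bp, also held the HRE core, and no region shared with another line lay within 25 kb of the pair. The next, at 19.1, lay 1890 bp from MIR21, a microRNA that is abundant in many carcinomas. It is also one of the few that overlapped a HCT116 normoxia peak, where the value was 10.6, and peaks of all 3 other lines stood within 1000 bp without an overlap, centred 148 bp away in H460 (a peak of 24.9), 584 bp in A549 and 768 bp in RKO. The peak at 17.8 lay 5018 bp upstream of CDKN1C, the cyclin-dependent kinase inhibitor p57, in an intron of SLC22A18AS. Peaks of all 3 other lines were centred close to it, at 2252 bp in RKO, 2256 bp in A549 and 2273 bp in H460.

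Among the other strong peaks, a site at 10.3 lay in an intron of SLC16A3, the lactate exporter MCT4, 11050 bp downstream of its start and 2126 bp from a region called in other lines. A peak at 13.9 lay in an intron of AHNAK and one at 11.3 in an intron of VTI1A. A peak at 11.5 covered coding sequence of ARID5A, 13499 bp downstream of its start. On chromosome 1, a peak at 10.8 lay 15185 bp downstream of the start of ELF3, an epithelial transcription factor, and one at 13.7 lay 37714 bp upstream of GPR37L1. The remaining ones of the 20 strongest were between 8.22 and 13.6, near or in KRT19, GSE1, LGMN, CCN6, DCBLD1, ZFPM1, TSNARE1, ARHGAP27, the long noncoding KCNIP2-AS1 and unnamed lncRNA genes. Of these 20, 17 held the HRE core and 1 held an AP-1 site, which were in 43.1% and 10.6% of all 1767 peaks. The nearest protein-coding start was over 10 kb away for 16 of the 20, and the lower quartile of that distance over all peaks was 16490 bp. A region called in 2 or more lines was over 100 kb away for 12 of the 20, while 22.3% of all peaks lay within 100 kb of one.

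A few strong members held no HRE core in the 200 bp at their centre. The strongest of these was at KRT19, a keratin of simple epithelia, with a normalized tag count of 10.3, 2835 bp downstream of the start, in a noncoding part of an exon. The next were at 9.44, 11085 bp upstream of LGMN, and at 8.95, near the lncRNA ENSG00000289614. The other two lay just past the distance limit, at 7.85 and 2758 bp downstream of the start of ZFP36, an RNA-binding protein that promotes mRNA decay, and at 7.73 and 2704 bp downstream of the start of DDIT4, a hypoxia-induced inhibitor of mTORC1. Peaks of other lines stood close to 3 of these 5. H460 peaks were centred 197 bp from the KRT19 peak and 323 bp from the DDIT4 peak, with normalized tag counts of 10.9 and 42.1. An A549 peak was centred 398 bp from the DDIT4 peak, and a RKO peak of 2.84 was centred 174 bp from the ZFP36 peak.

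The HRE core was more frequent at the centre of the peaks than beside them. It was present in the 200 bp centre of 762 of the 1767 peaks (43.1%, interval 40.8% to 45.4%), and in 22.2% (20.8% to 23.6%) of windows of that length 2000 bp to either side, a difference of 21.0 percentage points (18.3 to 23.7). Over all HCT116 hypoxia peaks the share was 65.1%. A control with 1 base changed, ACGAG or GCGAG, rose as well, from 15.4% in the flanks to 25.1% at the centre, a difference of 9.76 points (7.44 to 12.1). Base composition moved with these shares. The median GC content was 55.5% at the centre and 45.5% in the flanks, and the median number of CpG dinucleotides in 200 bp was 4 against 2. In peaks at or below the median GC content the core was held by 38.8% of centres and 18.1% of flanks, with 17.5% and 12.3% for the control, and in peaks above it by 47.6% and 26.4%, with 33.1% and 18.6% for the control. The part of base composition in the difference between centre and flank was not tested further. The longer form with a C after the core, ACGTGC or GCGTGC, which contains the core, was in 17.4% of centres and 4.61% of flanks.

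The far peaks held the core less often than the HCT116-only peaks near starts, where it was in 71.7% of centres, a difference of -28.6 points (-32.2 to -24.9). That difference was -12.7 (-20.6 to -5.14) among peaks at least 6-fold over the local region. It was -7.77 (-13.8 to -1.93) when far peaks were limited to those with over 25 tags and near peaks were left whole. The near peaks also had a median GC content of 70.0% and held the control in 60.7% of centres. HCT116 far peaks that another line shared held the core in 91.2% (87.9% to 93.7%). Among far peaks of single lines, the core was in 17.5% of centres for RKO, 36.2% for A549 and 61.3% for H460. The HCT116 share was 25.6 points above RKO (23.1 to 28.1) and 6.90 above A549 (4.09 to 9.73), and its difference from H460 was -18.2 (-21.6 to -14.8). For the control the HCT116 share was higher than all 3, by 13.9, 9.26 and 3.30 points. Of these 3 differences in the core, the one from RKO alone kept its sign under every alternative run. Against A549 the difference was -2.29 (-5.77 to 1.19) with the 3500 strongest peaks of each list and -3.26 (-5.66 to -0.80) for ACGTG alone, while among peaks at least 6-fold over the local region it was 30.4 (23.1 to 36.8). In that last setting the difference was 54.0 (46.7 to 60.2) from RKO and 0.80 (-6.66 to 7.35) from H460, and the excess of the HCT116 centres over their flanks was 50.9 points (42.4 to 58.1). The authors required other folds over input in RKO (6), A549 (13) and H460 (14), so the lists reach down to different signal. The 3500 and 6-fold limits were set on every list before peaks were joined. A shared HCT116 peak could thus count as HCT116-only once its partner dropped out.

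**Figure D2:**
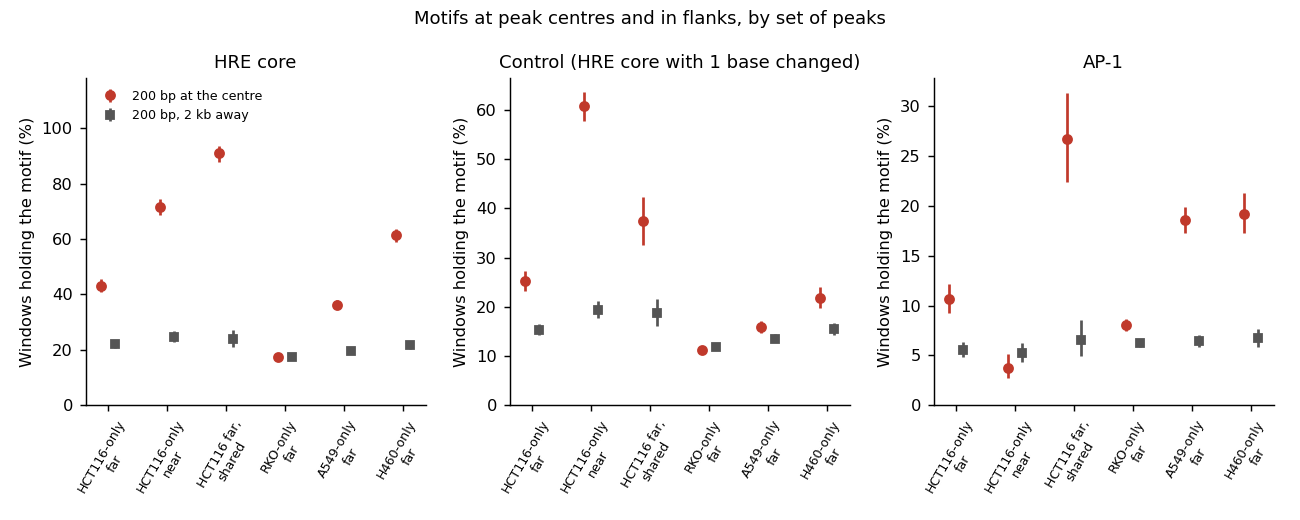
Share of windows (y axis, percent) that hold the HRE core, its control with 1 base changed and the AP-1 site, at the 200 bp centre (circles) and 2 kb away (squares), for 6 sets of peaks (x axis), with 95% Wilson intervals as bars. In the HCT116-only far peaks the core is at 43.1% against 22.2% in flanks, between the A549-only and H460-only far peaks, and the AP-1 site is at 10.6% against 5.52%.

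The core also gathered around the middle of the peak. Within 25 bp of the centre there were 12.6 copies per 100 peaks in each 25 bp bin, against 4.50 beyond 300 bp, a ratio of 2.80. The ratio was 1.42 for the control. For comparison it was 1.24 in the RKO-only, 3.31 in the A549-only and 5.53 in the H460-only far peaks, and 7.02 in the HCT116 far peaks shared with another line. Single matches were most common, with 465 peaks holding 1 core, 194 holding 2 and 103 holding 3 or more. The form GCGTG was in 27.2% of the peaks and ACGTG in 22.1%. The order was the other way in the A549-only (15.8% and 25.4%) and H460-only (27.5% and 44.4%) far peaks and in the shared far peaks of HCT116 (43.7% and 72.8%), while the HCT116-only peaks near starts, with their higher GC content, also had more GCGTG (52.8% and 37.5%).

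**Figure D3:**
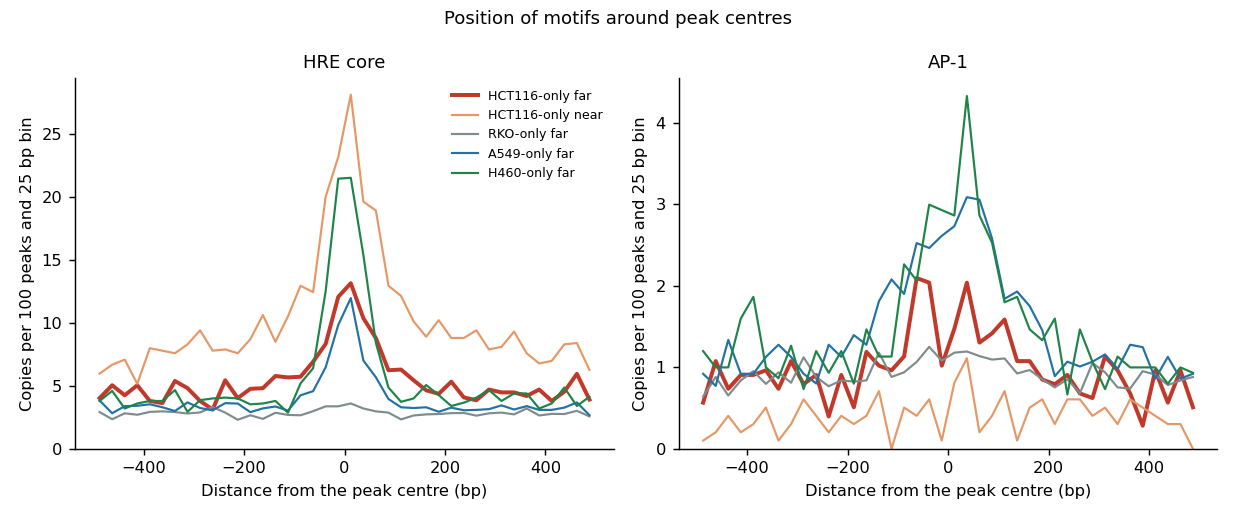
Copies of the HRE core (left) and of the AP-1 site (right) per 100 peaks in bins of 25 bp (y axis), by distance from the peak centre (x axis, bp), for the far peaks of each single line and the HCT116-only near peaks (lines). The core in HCT116-only far peaks (thick line) rises to 12.6 copies within 25 bp of the centre from 4.50 beyond 300 bp.

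Peaks with more tags held the core more often. Among the 943 peaks with 17 to 22 tags it was in 36.9% of centres (33.9% to 40.0%) and in 21.1% of flanks. The share was 41.6% of 505 peaks with 23 to 25 tags, 46.3% of 147 with 26 to 30, 75.8% of 91 with 31 to 40 and 82.7% (73.1% to 89.4%) of 81 with 41 to 245. The flanks stayed between 21.1% and 27.8% over these bins, and the control rose from 22.6% to 38.3%. Taking the 319 peaks with over 25 tags against the 1448 others, the core was in 64.0% and 38.5%, a difference of 25.4 points (19.4 to 31.1). The median GC content of these groups was 58.5% and 55.0%.

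**Figure D4:**
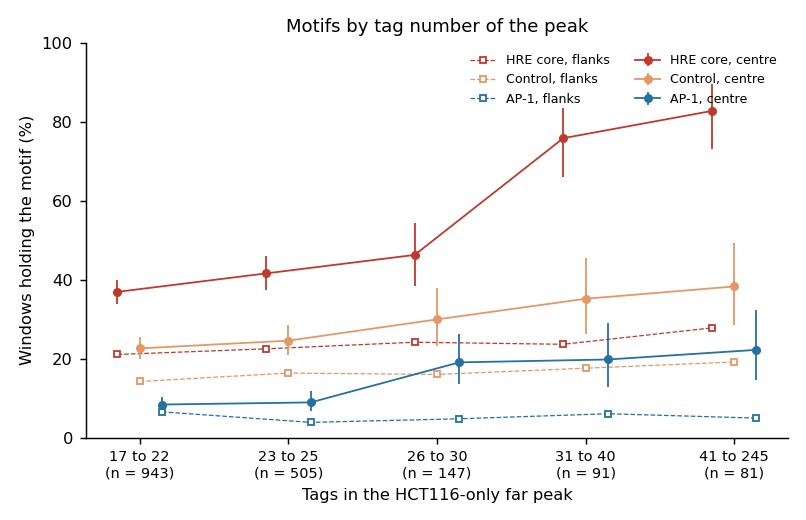
Share of windows (y axis, percent) that hold the HRE core, the control or the AP-1 site in HCT116-only far peaks, by the number of tags in the peak (x axis, n below), at the centre (filled circles, 95% Wilson intervals) and in flanks 2 kb away (open squares). The core rises from 36.9% to 82.7% of centres while its flanks stay between 21.1% and 27.8%.

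AP-1 sites were found in a smaller part of the set. TGANTCA was in 188 peaks, or 10.6% of centres (9.29% to 12.2%), and in 5.52% of flanks, a difference of 5.12 points (3.55 to 6.80). It was in 9.16% of all HCT116 hypoxia peaks. In the HCT116-only peaks near starts it was in 3.74%, which was 6.90 points fewer (4.98 to 8.73), and in the HCT116 far peaks shared with another line in 26.7%. Across single lines 8.04% of RKO, 18.5% of A549 and 19.2% of H460 far peaks held it. The HCT116 share thus lay 2.60 points above RKO (1.09 to 4.24), and differed by -7.90 points from A549 (-9.81 to -5.91) and -8.59 from H460 (-11.1 to -6.14). When every list was limited to peaks at least 6-fold over the local region, the last 2 differences were -1.90 (-7.72 to 5.06) and -0.11 (-6.18 to 7.02), while the difference was 12.4 (6.73 to 19.2) from RKO, 19.3 (13.3 to 26.1) from the near peaks and 16.2 (10.0 to 23.1) from the flanks. With the 3500 strongest peaks of each list the difference was 0.43 (-1.63 to 2.57) from RKO and -11.7 (-14.2 to -9.16) from A549. AP-1 sites were in 20.1% of the peaks with over 25 tags and in 8.56% of the others. Unlike the core, they were less frequent in GC-richer peaks, with 13.1% (11.0% to 15.4%) at or below the median GC content and 8.11% (6.47% to 10.1%) above it.

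The motifs split the set into 667 peaks with the core alone, 93 with an AP-1 site alone, 95 with both and 912 with neither (51.6%, interval 49.3% to 53.9%). An AP-1 site was in 12.5% (10.3% to 15.0%) of the peaks with a core and in 9.25% (7.61% to 11.2%) of those without. The share with neither motif was 27.1% in the HCT116-only near peaks, 5.87% in the shared far peaks, 76.2% for RKO, 53.8% for A549 and 30.8% for H460.

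Of 17 sets of letters searched on both strands, 7 were more frequent at the centre than in the flanks, 5 were less frequent, and for 5 the interval of the difference held 0. Besides those above, the higher ones were GGGCGG of SP and KLF factors (15.5% against 4.92%), the E-box CACGTG, which contains ACGTG (6.23% against 2.58%), and CCGGAAG of ETS factors (2.15% against 0.65%), all rich in G and C. The lower ones were AGATAA of GATA factors (4.87% against 10.9%), TTTATNG of CDX factors, which specify intestinal epithelium (5.43% against 10.2%), CCAAT of NF-Y (18.6% against 23.1%), TTGCNNAA of C/EBP (5.26% against 9.62%) and TGTTTAC of FOX factors (1.58% against 2.69%). The interval held 0 for GGAATG of TEAD, TGTGGT of RUNX, CTTTGAT of TCF and LEF, CAAAGTCC of HNF4 and the CRE TGACGTCA. The 5 lower ones hold more A and T than G and C, and the part of base composition was not tested. In the RKO-only far peaks the median GC content was 41.0% at the centre and 40.5% in the flanks. There the difference between centre and flank was -0.44 points for the CDX letters and 0.75 for the GATA letters. It was -7.27 and -8.54 in the HCT116-only near peaks. A match or its absence concerns these letters in this window only.

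By their centres, 797 peaks (45.1%, interval 42.8% to 47.4%) lay in introns of protein-coding genes, 592 (33.5%) between genes, 172 (9.73%) in introns of lncRNA genes, 94 (5.32%) in coding exons, 96 (5.43%) in noncoding parts of exons of protein-coding genes and 16 in lncRNA exons. Introns of protein-coding genes held 3098 of the 7039 RKO-only, 1573 of the 3371 A549-only (46.7%) and 675 of the 1503 H460-only (44.9%) far peaks. The median distance to the nearest start was 23486 bp (21898 to 25465). It was 36026 bp for RKO, 26066 bp for A549 and 26204 bp for H460. The farthest peak lay 592276 bp from any start. The rule used 1 start per gene, and 313 peaks (17.7%) lay within 2500 bp of the start of some annotated transcript. Peaks with over 25 tags were more often within 10 kb of a start (30.4%) than the others (21.5%), by 8.93 points (3.66 to 14.6).

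Some HCT116-only far peaks stood close to binding in other lines. A hypoxia peak of another line was centred within 1000 bp of 58 peaks (3.28%, interval 2.55% to 4.22%), and within 5000 bp of 177 (10.0%). The neighbour within 1000 bp was a RKO peak for 33, an A549 peak for 22 and a H460 peak for 21. The hypoxia lists of these lines held 9171, 5408 and 3877 peaks, and the counts are not corrected for list size. Among peaks with over 25 tags such a neighbour was found for 9.09%, and among the others for 2.00%. The strongest of the 58 were those at MIR21, KRT19, DCBLD1, ZFP36 and DDIT4, and the DCBLD1 peak, at 9.20, had a RKO peak of 3.44 centred 160 bp away. Requiring no edge of another line's peak within 1000 bp left 1705 peaks.

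Regions called in 2 or more lines were within 50 kb of 208 peaks (11.8%, interval 10.4% to 13.4%), and regions called in all 4 lines of 34 (1.92%). The share was 6.90% for RKO-only far peaks, a difference of 4.87 points (3.32 to 6.55), and 11.7% for A549-only far peaks, a difference of 0.11 (-1.70 to 2.01). H460-only far peaks had 14.6%, a difference of -2.80 (-5.15 to -0.48), and HCT116-only near peaks 20.9%, a difference of -9.14 (-12.1 to -6.25). At 100 kb the difference was 3.13 (0.81 to 5.52) from A549 and -0.26 (-3.14 to 2.60) from H460. Both differences kept their sign, but whether the interval held 0 depended on the distance taken. The median distance to such a region was 359570 bp. The share was 21.3% of the peaks with over 25 tags and 9.67% of the others.

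Few HCT116 hypoxia peaks of any kind were called in normoxia. Of the 1767 far peaks, 12 (0.68%, interval 0.39% to 1.18%) overlapped one of the 287 HCT116 normoxia peaks, and the share over all HCT116 hypoxia peaks, 0.926%, lies inside that interval. Of the 12, 10 had over 25 tags. The normalized tag counts in hypoxia and normoxia were 19.1 and 10.6 near MIR21, 7.85 and 4.92 at 7172 bp from the start of PTMA, the gene of prothymosin alpha, and 6.62 and 3.90 at 49925 bp from the start of DNAJB8. In 5 of the 12 the normoxia value was the higher one, among them 6.07 against 4.66 upstream of PDXDC1, 4.19 against 3.93 in HDAC4, 3.47 against 3.07 in SBSPON and 3.33 against 2.45 in RHBDD1. These lists were called with peak widths of 190 bp in normoxia and 148 bp in hypoxia, and the counts are not corrected for width. Normoxia peaks of RKO, A549 and H460 overlapped 4, 4 and 2 of the HCT116-only far peaks, among them the site near PTMA in RKO.

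Most members stood alone. When members no more than 25 kb apart were joined, 1568 stood alone, 89 groups held 2 and 7 groups held 3, so that 11.3% had another member within 25 kb, against 19.5% for RKO, 12.4% for A549 and 17.7% for H460. The share was 9.49% among the HCT116-only near peaks and 6.40% among the shared far peaks, and the sets differ in size. The group of 3 with the highest summed signal ran over 28159 bp between ELF3 and GPR37L1, with values of 3.31, 3.07 and 13.7. In an intron of HDAC4, a class IIa histone deacetylase, 3 peaks lay within 2707 bp, with values of 6.13, 3.93 and 3.07. The gene is 353485 bp long and held 6 members in all, the most of any gene by a count not corrected for length. The groups in CASZ1, LAMC3 and around SMC3 had members between 2.45 and 3.43, with the HRE core in 3, 0 and 1 of their 3 peaks. None of these 5 groups had a region shared with another line within 25 kb.

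The peaks were unevenly spread over the chromosomes. Over the assembly there were 0.571 peaks per Mb. The highest densities were on 8q (1.69, 171 peaks), 17q (1.43, 82 peaks), 19p (1.34, 35 peaks) and 10q (1.21, 115 peaks), and chromosome X held 2 peaks. The long arms 8q, 10q and 17q, the densest of the arms with at least 50 peaks, make up 8.18% of the assembly and held 368 of the 1767 peaks (20.8%, interval 19.0% to 22.8%). The same arms held 10.3% of the HCT116-only near peaks, a difference of 10.5 points (7.78 to 13.1), 18.1% of the RKO-only, 13.8% of the A549-only and 10.2% of the H460-only far peaks, and 28.2% (23.3% to 33.7%) of the HCT116 normoxia peaks. On these 3 arms the HRE core was in 34.8% of the far peaks, against 45.3% elsewhere, a difference of -10.5 points (-15.9 to -4.90), the control in 20.1% against 26.4%, and the median GC content was 52.0% against 56.5%. The median normalized tag count was 2.82 on them and 2.70 elsewhere, and the median input value was 1 tag in both. The arms were chosen after their counts were seen, and taken singly they differed. On 8q lay 9.68% of the HCT116-only far peaks, against 13.8% for RKO, 4.95% for A549 and 2.60% for H460. On 17q the shares were 4.64%, against 1.32%, 4.72% and 4.66%. On 10q they were 6.51%, against 2.98%, 4.18% and 2.99%. Only on 10q was the HCT116 share above those of all the other lines. The DNA copy number of the arms was not tested.

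**Figure D5:**
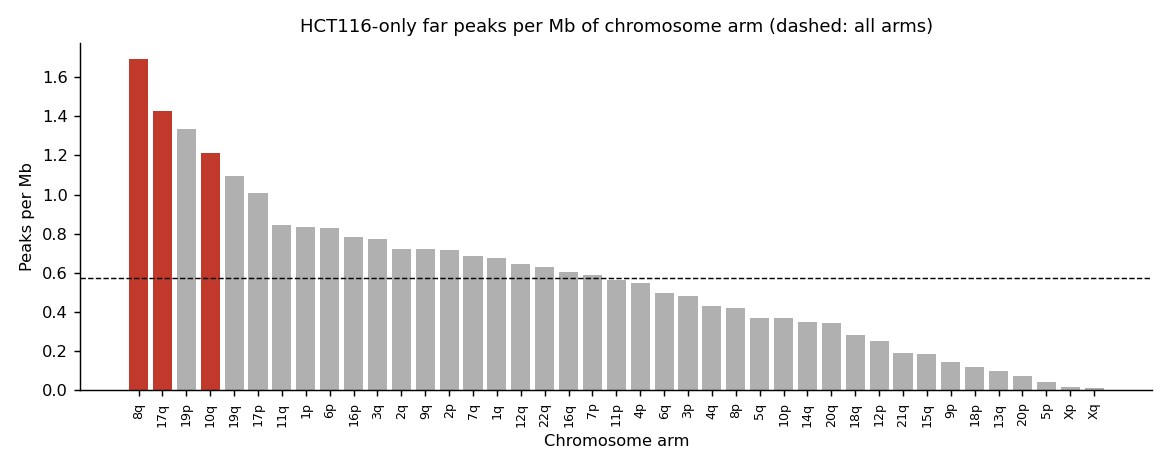
HCT116-only far peaks per Mb (y axis) on each chromosome arm (x axis, bars), with the value of 0.571 over the assembly as a dashed line. The 3 coloured arms 8q, 17q and 10q have 1.69, 1.43 and 1.21 peaks per Mb.

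Genes of 7 lists were searched for far peaks within 50 kb of their start, as a description with no test. Over 20163 protein-coding genes, 9.65% had such a peak. The share was 20.0% (5 of 25) for glycolysis and pyruvate genes, 7.50% (3 of 40) for other classical HIF targets, 16.7% (5 of 30) for intestinal epithelium, 16.7% (5 of 30) for the Wnt pathway, 40.0% (12 of 30) for AP-1 and immediate early genes, 6.67% (2 of 30) for lung epithelium and 10.0% (3 of 30) for TGF-beta and SMAD genes. The share for AP-1 and immediate early genes ran from 3.33% (local fold of at least 6) to 46.7% (start distance of 1000 bp) under the alternatives. It was 16.7% with a fold over input of at least 14 and 13.3% with over 25 tags. The share over all protein-coding genes was not recomputed for the settings named here, so 9.65% is no background for them. Distance does not show which gene a site acts on.

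For the metabolic genes, the peaks near SLC2A1 and SLC16A3 were the strong ones described above. The others were weak, at 3.07 for SLC2A3 (the glucose transporter GLUT3, 8105 bp upstream), 2.82 for PFKFB3 (which makes the activator of phosphofructokinase, 14792 bp upstream) and 2.70 for ALDOA (aldolase A, 8705 bp downstream), and 4 of these 5 genes had a strongest peak with the HRE core. Of the classical targets outside glycolysis, DDIT4 had the value of 7.73, and KDM3A, a histone demethylase, and ANKRD37 had 2.82 and 2.58. None of these 3 peaks held the core, which was in 43.1% of all the far peaks.

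Among the immediate early genes, which respond within minutes to growth or stress signals, the values of the strongest peak were 7.85 for ZFP36, 4.05 for MAFK and for PHLDA1, 3.56 for IER3, and between 2.45 and 3.07 for FOSL2, JUNB, FOSB, KLF10, ZFP36L1, IER5, DUSP5 and MAFF. Of the 12 peaks, 5 held the HRE core, and an AP-1 site was in those of MAFK, IER3 and IER5. Over all the far peaks the shares were 43.1% for the core and 10.6% for the AP-1 site. For the Wnt genes the values were 4.17 for WNT16, a ligand, 3.93 for RNF43, which removes Wnt receptors from the membrane, 3.56 for CTNNB1, the gene of beta-catenin, 3.31 for CCND1, the cyclin D1 gene, and 2.94 for ASCL2, a factor of intestinal stem cells. Only the ASCL2 peak of these 5 held the core. The intestinal genes were ELF3 (10.8), KRT19 (10.3), EPHB2 (2.94), EPCAM (2.82) and MUC13 (2.70). The lung genes were NAPSA (4.17) and AGER (2.70), and those of TGF-beta signalling were TGFB1 (2.94), SKIL (2.82) and TGFB3 (2.70).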

How the data were processed

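Per the labels, 20 libraries were made, of which 16 were HIF1A ChIP libraries and 4 input DNA. According to the submitters' processing notes, reads were handled with bcl2fastq, FastQC 0.11.5, Bowtie2 2.2.9, SAMtools 1.3.1, Picard 1.129 and HOMER 4.3 on GRCh37. HOMER peaks were called by the authors on merged replicates against input, in 8 lists, 1 per line and condition, with 41.2 M to 81.5 M tags each (M, 1000000), so a fold over input rests on few tags in weak peaks.

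The deposited values were the normalized tag count (a signal per 10 M tags, per the file headers), input tags (also a signal, scaled by the authors), the fold ratio over input, the fold ratio over the local 10000 bp and the fraction given by the authors' focus ratio, which was not used further. Unscaled tags were computed from the normalized tag count and the header total. Peaks were joined, members selected and distances taken to 38865 gene starts with Python 3.11.15, pandas 2.3.3 and pysam 0.24.0. Motif letters were searched on both strands in 200 bp at the centre and 2000 bp away. Shares carry Wilson intervals, differences Newcombe intervals and medians order-statistic intervals (95%), all for counting error only, and no p-value was computed. The functions were tested on simulated peaks.

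The members, gene lists and motifs were chosen with earlier results of these data known. Named peaks were the 20 strongest, the 5 strongest with no core, the 5 largest groups, the strongest peak of up to 25 listed genes (here all 35 are given) and the 3 on each side of the distance limit. Other genes were named after their values were seen. A few named sites and 1 peak sequence are not reported here.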

Additional observations from a re-analysis of the deposited data

Results flagged for a closer look

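The excess of a motif at the centre over the flanks was compared between the far peaks of HCT116 and those of each other line, which were chosen by the same rule. For the HRE core the excess was 21.0 percentage points for HCT116, 0.13 for RKO, 16.7 for A549 and 39.5 for H460. The HCT116 excess minus the other was 20.8 points for RKO (interval 17.9 to 23.7), 4.28 for A549 (1.00 to 7.55) and -18.5 for H460 (-22.4 to -14.6). For the control with 1 base changed the excess was 9.76 points for HCT116, -0.54 for RKO, 2.33 for A549 and 6.39 for H460, and the differences were 10.3 for RKO (7.81 to 12.8), 7.43 for A549 (4.67 to 10.2) and 3.37 for H460 (-0.03 to 6.76). The difference from A549 was smaller for the core than for the control, with intervals that overlap. For the AP-1 site the excess was 5.12 points for HCT116, 1.76 for RKO, 12.1 for A549 and 12.5 for H460, and the differences were 3.36 for RKO (1.61 to 5.20), -6.97 for A549 (-9.11 to -4.77) and -7.39 for H460 (-10.1 to -4.67). The intervals for the core and the AP-1 site lie away from 0. All intervals cover counting error over peaks only, and set 1 merged library against another, each called at its own fold over input.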

How the results depend on the processing

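No paired analysis was possible because the replicates of each line and condition were merged before peak calling, and leaving out a replicate was not run for the same reason. Of 21 alternatives, those on the 10 kb, 100 kb and normoxia distances did not concern motifs. The others gave 164 recomputed differences in motif share, of which 155 kept their direction and their side of 0. Moving the flanks to 5000 bp could not alter differences between sets, which use centres only. Those unchanged values are counted among the 155. The core in HCT116 minus A549 far peaks became -2.29 points with the strongest 3500 peaks of each list and -3.26 for ACGTG alone. Minus H460 it became 0.80 with a local fold of at least 6 in every list, where the AP-1 differences were -1.90 (A549) and -0.11 (H460). The AP-1 difference from RKO was 0.43 with the strongest 3500 peaks. Among HCT116-only far peaks with over 25 tags, the core differed from H460 by 2.61 points, and AP-1 sites from A549 and H460 by 1.52 and 0.83. That setting was added once the data had been seen. It limited the HCT116 far peaks only and left the far peaks of the other lines whole, so unlike ranges of signal were compared.

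The number of members fell to 660 with a fold over input of at least 14, 173 with a local fold of at least 6 and 319 with over 25 tags. The fold limits were set on every list before peaks were joined, so these sets can hold peaks shared in the main setting. The median signal became 4.54 with the local fold. The share overlapping a HCT116 normoxia peak was 1.67% (fold of 14), 4.05% (local fold) and 3.13% (over 25 tags). It was 0.14% of the members with 25 tags or fewer. The share over all HCT116 hypoxia peaks was not recomputed under these settings, so no background stands beside these values. The share within 50 kb of a region of 2 or more lines was 9.57% with starts at least 10000 bp away, 9.56% with every transcript start, 8.94% with the fold of 14, 21.3% with over 25 tags, 9.42%, 9.41% and 8.32% with RKO, A549 or H460 left out, and 2.72% and 22.3% at 10 kb and 100 kb. Listed genes with a member within 50 kb were 16.3% of 215, against 9.65% of all protein-coding genes. At 10 kb the shares were 4.19% and 1.58%, and at 100 kb 26.5% and 17.4%. Under settings that left fewer members, listed genes had 9.77% (10000 bp), 6.98% (fold of 14), 3.26% (local fold) and 6.51% (over 25 tags). The share over all protein-coding genes was not recomputed for those settings, so 9.65% is no background for them. Of 105 values for single gene lists, 28 left their main interval. The members held a median of 22 tags, and merging of replicates leaves no peak with a replicate check. Leaving out 8q, 10q and 17q, also chosen after seeing the data, changed no call.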
